A study of Homo sapiens with 6 samples.

Results

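The genes described here encode the proteins of the cytosolic ribosome and were measured in HCT116 cells, a line from a human colorectal carcinoma. They were chosen by symbol: RPSA, RPLP0, RPLP1, RPLP2, or RPL or RPS followed by digits and at most one of the letters A, X or L, as the platform annotation of the array gives it. The rule found 119 of 47323 probes, for 72 of 20046 annotated genes, of which 46 encode proteins of the large subunit and 26 of the small subunit. After a filter on detection, 111 probes and 69 genes could be tested, 43 of the large and 26 of the small subunit. RPL10, RPL10L and RPL3L had no probe that passed. Some ribosomal protein genes were not analysed here.

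The ribosome consists of a small subunit, which reads the messenger RNA, and a large subunit, which joins the amino acids. Each ribosomal protein is needed about once per ribosome, and their messages begin with a run of pyrimidines, the terminal oligopyrimidine (TOP) tract, through which mTOR signalling and LARP1 set how fast they are translated. RPL5 and RPL11, bound to 5S ribosomal RNA, can also bind the p53 ligase MDM2 in human cells, and RPS6 is the classical substrate of the S6 kinases.

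All 6 samples were HCT116 cells, each stably expressing a short hairpin RNA (shRNA), which cells process into a small RNA that lowers the matching messenger RNA. NS shRNA cells carried a non-silencing hairpin, and PEA15 shRNA #1 and PEA15 shRNA #2 cells carried a pair of separate hairpins against PEA15, which encodes a small cytoplasmic partner of the ERK kinases. Total RNA of 2 samples a group was hybridised to Illumina expression arrays, which measure steady-state RNA and not its translation. The labels give no time point, and they do not say that the replicates were separate cultures, so p-values reflect only how these samples scatter, and that scatter may be technical.

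Each array detected 19441 to 20351 probes, and 2 arrays a group limit the precision of every value. PEA15 itself had log2 levels of 8.97 and 9.15 in NS shRNA, 8.22 and 8.17 in PEA15 shRNA #1 and 7.71 and 7.93 in PEA15 shRNA #2. The arrays of both PEA15 hairpins lay below both NS shRNA arrays, and the change was -0.86 for #1 (limma adjusted p = 0.122) and -1.23 for #2 (limma adjusted p = 0.00573). The #2 change passed in 15 of 17 alternatives and missed the threshold in those leaving out the second NS shRNA array (limma adjusted p = 0.0745) or the first #2 array (0.0592), while the #1 change passed in 5 of 17. Of 7 markers of colorectal epithelium, EPCAM, KRT8, KRT18, KRT19 and CDH1 passed the detection filter, and CDX1 and VIL1 did not. Of 12 markers of blood, stromal and other cells that the annotation lists, CD14, COL1A1 and ALB passed, near background. In bulk RNA, fewer cells of a type and less RNA per cell cannot be told apart.

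The starts of some of these genes are shown because the TOP tract is the feature that the messages share and the selection by symbol did not use. RefSeq promoters (assembly GRCh38.p14) matched 60 of the 72 genes. Each line gives 50 bases before the annotated start and 15 from it, 5′ to 3′ on the gene's strand, and capitals mark a run of at least 5 pyrimidines that opens with C within the first 5 bases of the transcript. RPL14 is the one member called in any comparison. RPS28, RPS23, RPL13A and RPS18 are members whose arrays separated in at least 1 comparison, RPL11 and RPS6 are tied to p53 and to S6 kinase signalling, RPLP1 is a stalk protein, RPS12 and RPL41 gave very bright probes, and the paralogs RPS27L and RPL10L have no such run. Their windows are chr3:40457289-40457353 (+) for RPL14, chr19:8321446-8321510 (+) for RPS28, chr5:82278340-82278404 (-) for RPS23, chr19:49487558-49487622 (+) for RPL13A, chr6:33272025-33272089 (+) for RPS18, chr1:23691756-23691820 (+) for RPL11, chr9:19380222-19380286 (-) for RPS6, chr15:69452768-69452832 (+) for RPLP1, chr6:132814519-132814583 (+) for RPS12, chr12:56116583-56116647 (+) for RPL41, chr15:63157463-63157527 (-) for RPS27L and chr14:46651767-46651831 (-) for RPL10L.
RPL14: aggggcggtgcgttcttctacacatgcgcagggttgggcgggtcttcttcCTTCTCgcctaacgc
RPS28: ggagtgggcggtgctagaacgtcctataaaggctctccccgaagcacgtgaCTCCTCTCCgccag
RPS23: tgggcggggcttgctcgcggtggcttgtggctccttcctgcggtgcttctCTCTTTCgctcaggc
RPL13A: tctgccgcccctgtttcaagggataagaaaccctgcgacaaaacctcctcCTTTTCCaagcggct
RPS18: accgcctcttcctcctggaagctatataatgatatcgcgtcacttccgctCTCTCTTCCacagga
RPL11: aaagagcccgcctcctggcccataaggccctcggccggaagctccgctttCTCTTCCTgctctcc
RPS6: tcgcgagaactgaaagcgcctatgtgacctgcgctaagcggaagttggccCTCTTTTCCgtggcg
RPLP1: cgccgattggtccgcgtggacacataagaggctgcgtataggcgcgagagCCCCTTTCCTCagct
RPS12: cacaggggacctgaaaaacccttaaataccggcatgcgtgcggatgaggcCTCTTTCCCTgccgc
RPL41: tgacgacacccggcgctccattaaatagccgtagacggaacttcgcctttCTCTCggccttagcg
RPS27L: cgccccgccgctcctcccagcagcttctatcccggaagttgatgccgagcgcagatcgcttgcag
RPL10L: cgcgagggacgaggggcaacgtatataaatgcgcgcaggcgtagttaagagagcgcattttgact
In 43 of the 60 genes (71.7%) the run starts at the annotated first base itself and is at least 5 bases long, against 1404 of 27305 genes with a RefSeq promoter (5.14%). It was found in 27 of 37 large subunit genes (73.0%) and 16 of 23 small subunit genes (69.6%). Where present it ran over 5 to 19 bases, with a median of 8, and the other 17 genes, RPS28 among them because its run starts after an A, lack it at the first base. Mitochondrial ribosomal protein genes, whose proteins serve the separate ribosome of that organelle, held it in 6 of 69 (8.70%).

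Both strands of the 300-base RefSeq windows were searched for 4 further motifs. CCGGAA, the core bound by ETS family factors, was in 35 of 60 genes (58.3%), in 20.1% of all genes and in 62.3% of mitochondrial ribosomal protein genes. TATAAA, the TATA box core, was in 5 of 60 (8.33%) against 14.0% of all genes. AAGATGGC, the core of the YY1 motif, was in 6 of 60 (10%) against 3.52% of all genes and 30.4% of mitochondrial ribosomal protein genes. CTTTCC, which can overlap the tract, was in 28 of 60 (46.7%) against 30.2% of all genes. A match describes the letters and shows no binding.

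Most ribosomal protein genes had small changes between the 3 shRNA groups, below 0.2 on the log2 scale in 59 to 65 of 69 genes a comparison. They gave 0.561% of the probes kept and, of the background-corrected signal of the kept probes, 7.19% and 7.33% in NS shRNA, 7.14% and 6.81% in PEA15 shRNA #1, and 7.38% and 7.23% in PEA15 shRNA #2. The arrays of PEA15 shRNA #1 were the lowest pair, and those of the other groups overlapped. Of the 100 brightest probes of an array, 18 to 22 were theirs, and 17 were among the 100 brightest on all 6 arrays. Brightness depends on the probe as well as on the RNA, so these ranks describe signal and not amounts of message.

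Averaged over the 69 genes, the log2 level was 12.52 and 12.53 in NS shRNA, 12.47 and 12.47 in PEA15 shRNA #1, and 12.53 and 12.55 in PEA15 shRNA #2. For the 43 large subunit genes the mean log2 levels were 12.19 and 12.22, 12.14 and 12.14, and 12.21 and 12.24 in the same order of groups. For the 26 small subunit genes they were 13.06 and 13.03, 13.01 and 13.02, and 13.07 and 13.06. By these means PEA15 shRNA #1 had the lowest pair of arrays in both subunits, and the group means over all 69 genes ran only from 12.47 to 12.54. By medians over the 69 genes #1 did not stand apart. The median levels were 13.391 and 13.379 in NS shRNA, 13.379 and 13.349 in #1, and 13.387 and 13.344 in #2.

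**Figure D1:**
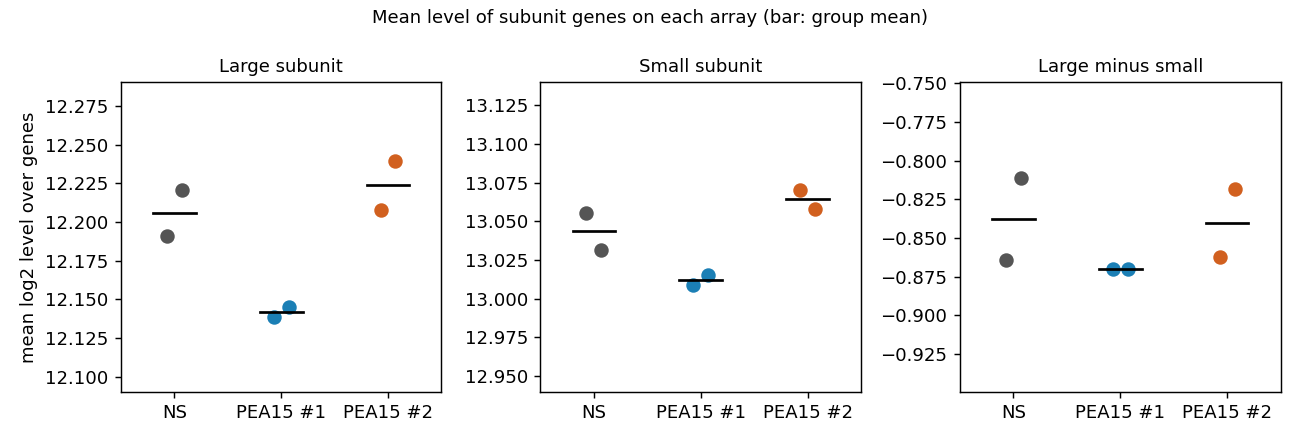
Mean log2 level of large subunit (43 genes) and small subunit (26 genes) ribosomal protein genes on each of the 6 arrays, by shRNA group. The last panel gives large minus small. Points are arrays and bars group means, and each panel spans 0.2 log2 units. The PEA15 shRNA #1 arrays are lowest in both subunit panels, at 12.14 for the large and 13.01 and 13.02 for the small subunit.

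Large and small subunit genes were compared on each array. The mean log2 level of large minus small subunit genes was -0.86 and -0.81 in NS shRNA, -0.87 and -0.87 in PEA15 shRNA #1, and -0.86 and -0.82 in PEA15 shRNA #2. The group means were -0.84 ± 0.038 (SD, n = 2), -0.87 ± 0.00019 and -0.84 ± 0.031. The groups NS shRNA and PEA15 shRNA #2 overlapped, and PEA15 shRNA #1 lay just below the other arrays. The value itself rests on which probes the array carries, so only its change over arrays can be read, and no test was run on it. By medians, the log2 change was -0.05 for large and -0.02 for small subunit genes in #1 against NS shRNA, 0.03 and 0.01 in #2 against NS shRNA, and 0.08 and 0.05 in #2 against #1. Between replicate arrays, the median level of large minus that of small subunit genes had an SD of 0.063, which does not measure the scatter of these changes. The differences of the median changes, large minus small, were -0.03, 0.02 and 0.04. Their sign was not stable: with one array left out they ran from -0.04 to 0.03 in #1 against NS shRNA (0.03 without NS shRNA replicate 2, 0.02 without #1 replicate 2), and from -0.0028 (without NS shRNA replicate 1) to 0.04 in #2 against NS shRNA. With the mean of a gene's probes they were -0.0058 in #2 against NS shRNA and -0.0054 in #2 against #1. With the 32 genes whose level lay above the 99th percentile of all rows left out, the large minus small difference of medians went from -0.03 to -0.06 in #1 against NS shRNA, from 0.02 to -0.04 in #2 against NS shRNA and from 0.04 to 0.0010 in #2 against #1.

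**Figure D2:**
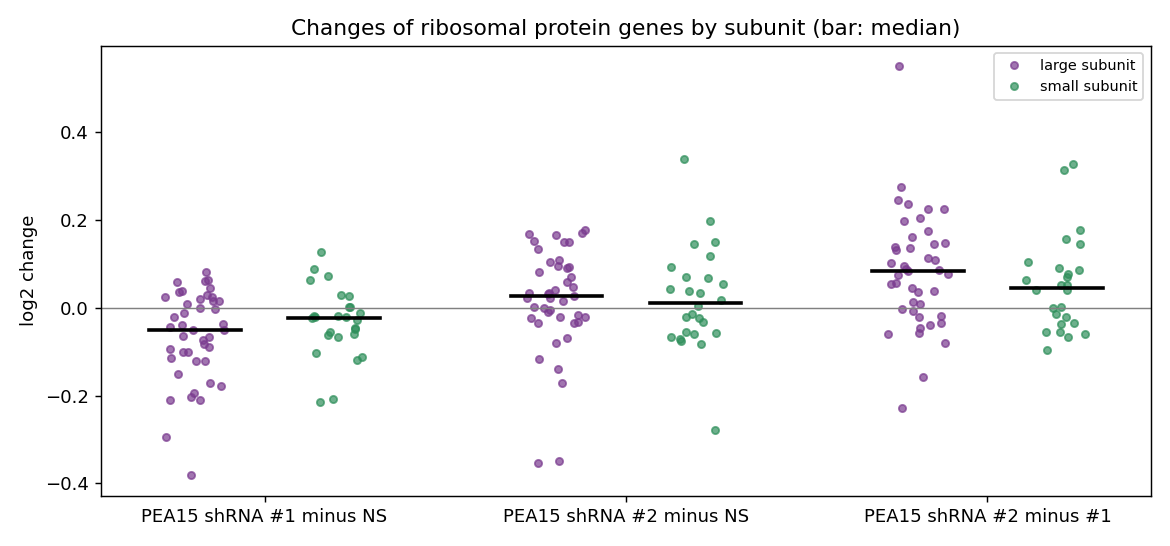
Log2 change of each ribosomal protein gene in the 3 comparisons; points are genes, split into large and small subunit, and bars are medians. The medians of both subunits lie between -0.05 and 0.08.

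The first comparison asked what PEA15 shRNA #1 did to these messages. None of the 69 genes passed (limma, adjusted p under 0.05 over all rows), against 0.0188% of all 15967 rows, and 1 gene, RPL14, had an unadjusted p under 0.05, against 11.7% of all rows. The median log2 change was -0.04 against -0.0036 over all rows, and 23 of 69 genes lay above 0, against 7818 of 15967 rows. Both arrays of one group lay above both of the other for 25 genes (42.2% of all rows), 3 higher and 22 lower in #1, where the shares over all rows were 20.6% higher and 21.7% lower. The sizes were small: 62 of 69 genes (89.9%) changed by less than 0.2 on the log2 scale, against 73.9% of all rows.

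RPL14, a large subunit protein, had the lowest change of the 69 with #1. Its log2 levels were 9.36 and 9.17 in NS shRNA, 8.82 and 8.95 in PEA15 shRNA #1, and 9.39 and 9.47 in PEA15 shRNA #2. The #1 arrays were the lowest and the #2 arrays the highest, with no overlap between groups, and the change in #1 was -0.38 ± 0.11 (limma SE; adjusted p = 0.279). RPL13A, a large subunit protein that in human monocytes also silences some messages after interferon, had 12.99 and 12.94 in NS shRNA, 12.72 and 12.78 in #1, and 12.97 and 13.01 in #2. Only the #1 arrays stood apart, and the change of -0.21 did not pass (limma adjusted p = 0.454). RPS18, a protein of the small subunit head, had 12.38 and 12.36, 12.30 and 12.02, and 12.45 and 12.53 in the same order. Its groups did not overlap, but the #1 arrays lay further apart than those of the other groups, and the change of -0.21 did not pass (limma adjusted p = 0.562). RPL13, a large subunit protein, had a change of -0.21 in #1. RPL37, a small zinc-binding protein of the large subunit, had 6.90 and 6.92 in NS shRNA, 6.39 and 6.85 in #1, and 6.24 and 6.87 in #2. One array of each PEA15 group was low and the other near the control, so its changes of -0.29 and -0.35 each came with an SE of 0.22. At the upper end, RPS20 changed by 0.13, RPS7 by 0.09, RPLP2 by 0.08, RPS16 by 0.07 and RPS15 by 0.06, and none of these passed limma's test.

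**Figure D3:**
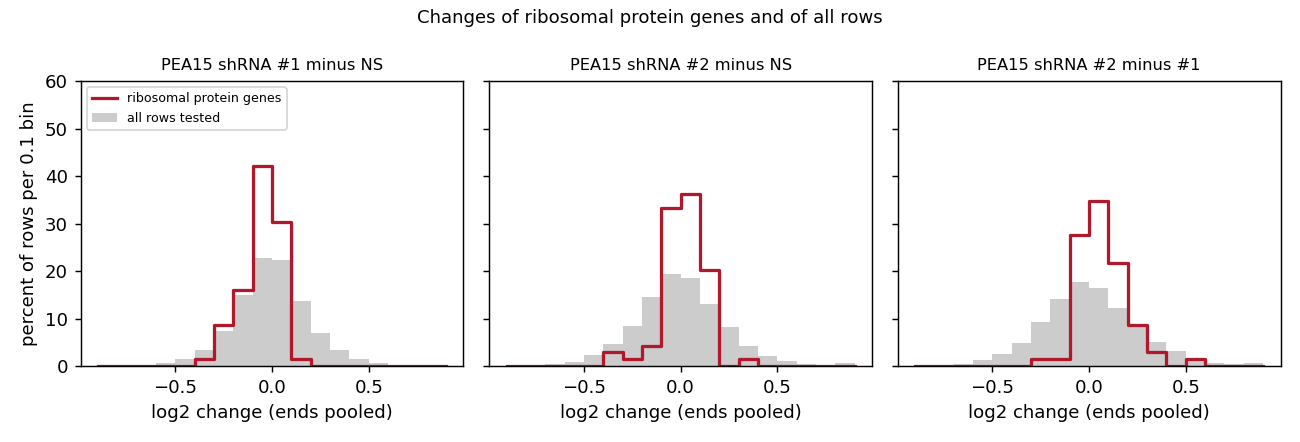
Share of ribosomal protein genes (red line) and of all rows tested in each 0.1-wide bin of log2 change, for the 3 comparisons, with the ends pooled. The ribosomal protein genes are drawn together near 0: between 85.5% and 94.2% of them changed by less than 0.2, against 60.5% to 73.9% of all rows. Of the tested elongation factors and other TOP messages, not drawn, 93.3% to 100% did so too. For mitochondrial ribosomal protein genes the share was 76.3% to 88.2%.

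The second comparison set PEA15 shRNA #2 against NS shRNA. Again 0 of 69 genes passed (limma, adjusted p under 0.05), against 1.7% of all rows, while 3 had an unadjusted p under 0.05 (RPS28, RPS23 and RPL39L), against 17.9% of all rows. RPL39L was kept only for its detection outside #2, so its p-value gives no support. The median log2 change was 0.02, with 40 of 69 genes above 0. Groups did not overlap for 27 genes (50.1% of all rows), 15 higher and 12 lower in #2, where the shares over all rows were 24% and 26.1%. The size of the change was under 0.2 for 65 of 69 genes (94.2%), against 65.4% of all rows. The 95% confidence interval of 67 of 69 genes (97.1%) lay within a 1.5-fold change either way, against 76.3% of all rows.

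RPS28, a protein near the messenger RNA exit of the small subunit, had log2 levels of 11.75 and 11.58 in NS shRNA, 11.68 and 11.70 in #1, and 11.95 and 12.07 in #2. The #2 arrays were above all others, and NS shRNA and #1 overlapped. The change in #2 was 0.34 ± 0.11 (limma adjusted p = 0.163), a ratio of 1.27, and 0.31 against #1 (limma adjusted p = 0.145). It passed in #2 against NS shRNA under 4 of 17 other ways of processing the arrays, with an adjusted p as low as 0.0109.

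RPS23, which sits at the decoding centre of the small subunit, had 10.26 and 10.21 in NS shRNA, 9.98 and 10.06 in #1, and 9.98 and 9.93 in #2. Both PEA15 hairpins lay below both control arrays, by -0.21 ± 0.10 in #1 (limma adjusted p = 0.453) and -0.28 ± 0.10 in #2 (limma adjusted p = 0.191). Those comparisons share the control arrays. The change in #2 passed under 3 of 17 other ways of processing, with an adjusted p as low as 0.0332. RPL34 and RPL6, both large subunit proteins, were the next lowest in #2, at -0.17 and -0.14, and RPS20 at 0.20, RPL12 at 0.18, RPLP1 and RPL14 at 0.17 followed RPS28 at the upper end. None of these passed.

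**Figure D4:**
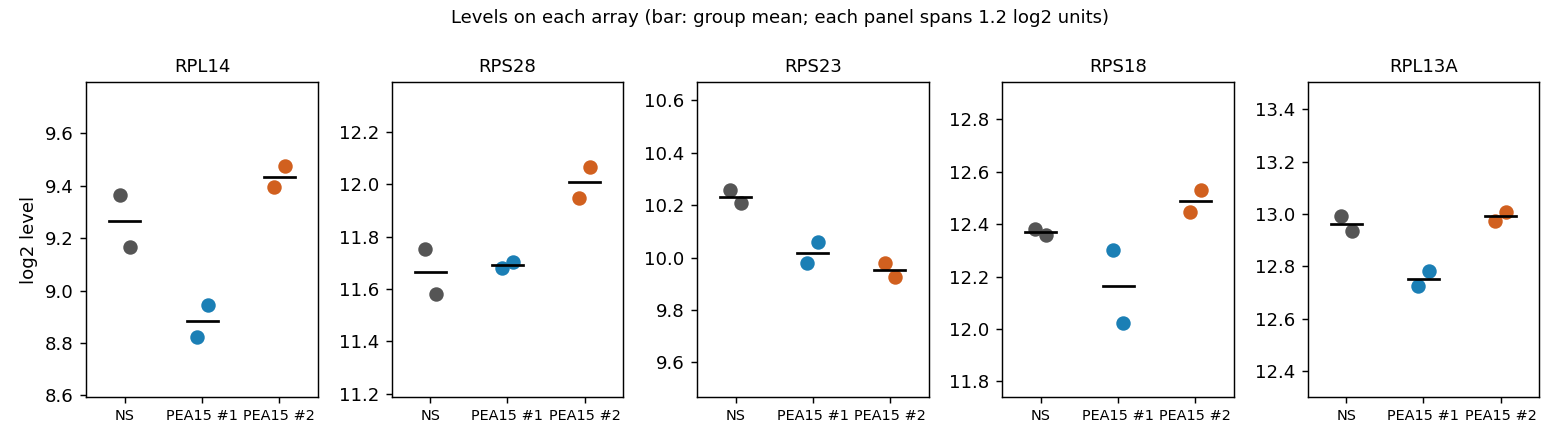
Log2 level of RPL14, RPS28, RPS23, RPS18 and RPL13A on each of the 6 arrays by shRNA group; points are arrays, bars group means, and each panel spans 1.2 log2 units. RPL14 is lowest in PEA15 shRNA #1 (8.82 and 8.95) and RPS28 highest in PEA15 shRNA #2 (11.95 and 12.07).

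The third comparison set the hairpins against each other, and it shares its arrays with the first and second. RPL14 was higher in #2 than in #1 by 0.55 ± 0.11 on the log2 scale (95% confidence interval 0.29 to 0.81, ratio 1.46, limma adjusted p = 0.0471). It was the only one of 69 genes to pass, with 1 higher and 0 lower, against 3.32% of all rows. Leaving out any one of the 6 arrays ended the call, with adjusted p from 0.0698 to 0.190. The change stayed between 0.43 and 0.61 over all 17 alternatives, and it passed in 6 of them. A second RPL14 probe had log2 levels of 8.42 and 8.30 in NS shRNA, 8.30 and 8.31 in #1, and 8.60 and 8.63 in #2. There the #2 arrays were again above all others, and #1 overlapped NS shRNA, with a difference of 0.31 between hairpins (limma adjusted p = 0.131 with every kept probe tested).

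Of the other genes, 5 including RPL14 had an unadjusted p under 0.05 (RPL14, RPS28, RPS18, RPL13A and RPL4), all higher in #2, against 22.4% of all rows; RPL4 was named after its values were seen. RPS18 was at 0.33, RPL23 at 0.27, RPL10A at 0.25 and RPL13A at 0.24. RPL39L was detected on neither #2 array and is left out of the order. The lowest of the others were RPL34 at -0.16, RPS16 at -0.10, RPL24 at -0.08 and RPS23 at -0.07. The median was 0.06 and 48 of 69 genes were above 0, against 7808 of 15967 rows. The hairpins' arrays did not overlap for 29 genes (53.7% of all rows), 24 higher and 5 lower in #2, against 26% and 27.7% of all rows. By group means, #1 was the lowest of the 3 groups for 34 of 69 genes (49.3%; 33.6% of all rows) and the highest for 8 (11.6%; 33.6% of all rows). The sign of the median was the same under median scaling (-0.05, 0.01 and 0.07 in the 3 comparisons). Between replicate arrays, an array's median level over the genes had an SD of 0.022, which does not measure the scatter of these median changes.

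Of the members with roles outside the ribosome, none passed. RPL5 had 12.38 and 12.58 in NS shRNA, 12.47 and 12.34 in #1, and 12.44 and 12.55 in #2. RPL11 had 13.39 and 13.47, 13.38 and 13.55, and 13.43 and 13.46 in the same order. For both, which bind MDM2, all 3 groups overlapped on these probes, and the 95% confidence intervals of their changes lay between -0.34 and 0.36 on the log2 scale. A second RPL11 probe had 13.31 and 13.28 in NS shRNA, 12.99 and 13.03 in #1, and 13.49 and 13.23 in #2. It was lowest on both #1 arrays, by -0.29 against NS shRNA (limma adjusted p = 0.414 with every kept probe tested) and 0.35 below #2 (limma adjusted p = 0.139). The mean of the RPL11 probes changed by -0.13 in #1 against NS shRNA and by 0.16 in #2 against #1, opposite in sign to the brightest probe. RPS6 had 13.57 and 13.61 in NS shRNA, 13.45 and 13.63 in #1, and 13.59 and 13.66 in #2. Its groups overlapped as well, and phosphorylation of its protein is not measured by these arrays. The stalk proteins RPLP1 and RPLP2, which recruit elongation factors to the large subunit, had a change against NS shRNA of 0.06 and 0.08 in #1 and of 0.17 and 0.02 in #2. RPLP1 was higher than NS shRNA on both #2 arrays and RPLP2 on both #1 arrays, and neither passed.

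The paralogs differed in whether they were detected. RPS27L, a p53-induced paralog of RPS27, had 11.79 and 11.86 in NS shRNA, 11.72 and 11.89 in #1, and 11.82 and 11.90 in #2, and its groups overlapped. RPL39L, a paralog of RPL39 that is abundant in testis, was at the edge of detection on 3 of 6 arrays, with log2 levels of 4.91 and 4.93, 4.75 and 4.84, and 4.59 and 4.54. It was detected on neither #2 array and passed the filter only through other groups, so the filter itself favours a lower level in #2. For that reason its p-value against NS shRNA gives no support (limma adjusted p = 0.123). The bound put it at least 1.06-fold below the NS shRNA mean, with no allowance for scatter, and gave no difference from #1 (0.976). A second RPL39L probe, which did not pass the filter, had 5.06 and 4.57 in NS shRNA and 4.65 and 4.70 in #2, which overlapped. RPL10L and RPL3L, paralogs found mainly in testis and in muscle, did not pass the filter. Neither did RPL10, and whether such a miss reflects the probe or the message was not tested. Of the other 68 genes, all were detected on all 6 arrays.

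The brightest genes, RPS12, RPL41 and RPS29, lay near the top of the scale. RPS12, a small subunit protein, had 14.37 and 14.37 in NS shRNA, 14.30 and 14.32 in #1, and 14.34 and 14.28 in #2. RPL41, the shortest ribosomal protein, had 14.24 and 14.31, 14.31 and 14.35, and 14.35 and 14.40, and RPS29 changed by 0.0027 in #1 and -0.03 in #2. On the brightest probe of each, the largest of their changes against NS shRNA was that of RPL41 in #2, at 0.10, and it did not pass. Other probes differed: a second RPL41 probe was at -0.23 in #2, and an RPS29 probe at -0.80 in #1. RPL28, a large subunit protein and among the dimmest with RPL39L and RPL37, changed by -0.08 and -0.12. Of the 69 genes, 32 lay above the 99th percentile of all rows by level, and the part of brightness in their small changes was not tested. Between replicate arrays, the log2 difference had an SD of 0.111 to 0.131 over the 69 genes and of 0.213 to 0.222 over all rows.

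Probes of one gene did not always change alike. Of 30 genes with 2 or more kept probes, 6 had probes whose changes differed by more than 0.4 in a comparison: RPS26, RPS29, RPLP1, RPL9, RPS27 and RPL13. For RPS26, a protein at the messenger RNA exit of the small subunit, a dim probe had 6.77 and 7.01 in NS shRNA, 7.30 and 7.37 in #1, and 6.63 and 6.47 in #2. It was highest in #1 and lowest in #2, and the difference of -0.78 between hairpins passed when every kept probe was tested as a row (limma adjusted p = 0.0209). The brighter RPS26 probe differed by 0.04 there, with overlapping groups. For RPS29, a probe had 10.03 and 10.29 in NS shRNA, 9.43 and 9.28 in #1, and 10.08 and 10.07 in #2. It was low only in #1, with a difference of 0.72 between hairpins (limma adjusted p = 0.0288), and the other 3 RPS29 probes differed by between -0.03 and 0.22. In all, 1 probe was higher and 1 lower of 111 in #2 against #1, where 2.95% of the 19781 probes passed, and 0 of 111 passed in #1 and in #2 against NS shRNA, where 0.0152% and 1.41% of the probes passed. A probe of RPLP1 had 8.91 and 8.94, 8.81 and 8.70, and 9.21 and 9.76. It was highest in #2, by 0.74 over #1 (limma adjusted p = 0.0671), while the other RPLP1 probes differed by 0.11 and 0.14. Ribosomal protein genes have many near-identical processed pseudogenes, and which transcript each probe captures was not tested, so probe-level values are uncertain.

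**Figure D5:**
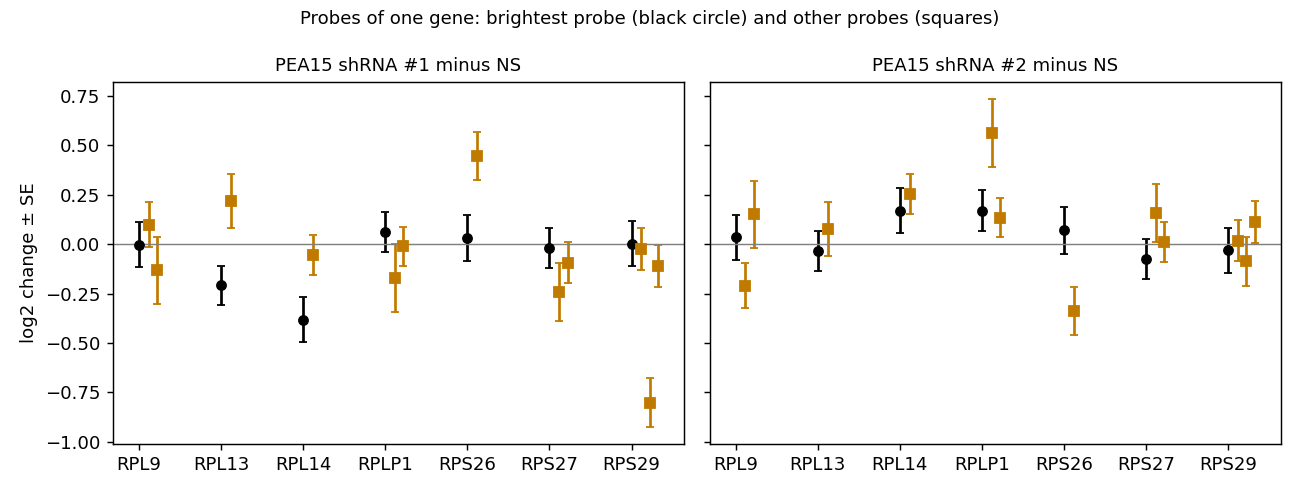
Log2 change with its limma standard error for each kept probe of RPL14 and of the 6 genes whose probes disagree, in #1 and in #2 against NS shRNA. Black circles are the brightest probe of a gene and squares its other probes. Apart from RPL14 at -0.38 in #1, the brightest probes lie within 0.21 of 0. Single probes of RPS26 and RPS29 reach 0.45 and -0.80 in PEA15 shRNA #1 against NS shRNA.

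Other genes of translation were counted from lists written with earlier results of these data known. Of 6 tested near relatives outside the rule, RSL24D1, whose yeast counterpart helps assemble the large subunit, was higher in #2 than in #1. It had 11.81 and 11.95 in NS shRNA, 11.84 and 11.88 in #1, and 12.38 and 12.44 in #2. Only the #2 arrays stood apart, by 0.55 from #1 (limma adjusted p = 0.0363) and 0.53 from NS shRNA (limma adjusted p = 0.0521). The call against #1 was lost with any one array left out (adjusted p up to 0.170). The other 5, FAU and RPL26L1 among them, did not pass. Of all rows, 3.32% passed in #2 against #1. Of 15 tested elongation factors and other TOP messages, 10 of whose 11 RefSeq promoters start with the tract (90.9%), 0 passed in any comparison. Of all rows 0.0188%, 1.7% and 3.32% passed, so with 15 genes this count says little. By limma 0 had an unadjusted p under 0.05 too, against 11.7%, 17.9% and 22.4% of all rows. Their medians were -0.09, -0.02 and 0.05 in the 3 comparisons. EEF2, the translocase of elongation, was at -0.14, 0.10 and 0.24, and NAP1L1, a histone chaperone, at -0.20 in #1.

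Mitochondrial ribosomal protein genes numbered 76, and 0 passed (limma), where 0.0188%, 1.7% and 3.32% of all rows passed. At an unadjusted p under 0.05 there were 6, 4 and 12, against 11.7%, 17.9% and 22.4% of all rows. Their medians were 0.04, -0.0044 and -0.03. MRPL57 was lowest in #2 against NS shRNA at -0.48 (limma adjusted p = 0.0693) and MRPL15 highest at 0.41. Of 49 ribosome assembly factors and RNA polymerase I genes 0 passed (0.0188%, 1.7% and 3.32% of all rows passed), with 2, 2 and 6 at an unadjusted p under 0.05, again against 11.7%, 17.9% and 22.4% of all rows. RRP12, which in yeast helps export the precursors of both subunits, was highest in #2 against NS shRNA at 0.52 (limma adjusted p = 0.0692), and RRP9, a protein of the U3 small nucleolar ribonucleoprotein, was lowest in #2 against #1 at -0.54.

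Among 13 tested regulators of ribosomal protein synthesis, EIF4EBP2 and MYC passed in #2 against #1, where 3.32% of all rows passed. In #2 against NS shRNA only EIF4EBP2 passed (1.7% of all rows), and in #1 against NS shRNA none did (0.0188%). EIF4EBP2, a repressor of cap-dependent translation that mTOR inactivates, had 8.80 and 8.62 in NS shRNA, 8.64 and 8.58 in #1, and 7.86 and 7.70 in #2. The #2 arrays were far below the others, by -0.93 ± 0.11 against NS shRNA (limma adjusted p = 0.0124) and -0.83 ± 0.11 against #1 (limma adjusted p = 0.0132), and #1 overlapped NS shRNA. Each call was lost when an array of the groups compared was left out, with adjusted p up to 0.114 and 0.0966. MYC, a transcription factor that drives ribosome production, had 11.75 and 11.77 in NS shRNA, 11.59 and 11.60 in #1, and 12.03 and 12.11 in #2. The groups did not overlap, and MYC was 0.47 higher in #2 than in #1 (limma adjusted p = 0.0454), a call also lost with any one array left out (adjusted p up to 0.188). Against NS shRNA the changes of MYC were -0.16 in #1 and 0.31 in #2, and neither passed (limma adjusted p = 0.568 and 0.154). In those same comparisons the median change of the 69 ribosomal protein genes was -0.04 and 0.02, and a link to MYC was not tested.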

How the data were processed

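The members, lists and tests were chosen with earlier results of these data known. Per the labels' protocols, total RNA was extracted with Trizol and labelled with biotin as cRNA for Illumina arrays. The deposited table holds, per the file headers, a mean signal as an intensity and a detection p-value for each of 47323 probes on 6 arrays. The authors also deposited log2 values, for which the submitters' processing notes name lumi without a version; these served as an alternative. Whether they were background-corrected is not stated.

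Signals were background-corrected with limma 3.58.1 in R 4.3.3 (normexp with the detection p-values, offset 16), quantile normalized and put on the log2 scale, which understates changes of dim genes. Probes detected (p under 0.05) on both arrays of any group were kept (19781 probes). Names came from the platform annotation (30113 probes with 1 symbol, 8 with several, 17202 not listed). All 72 member genes matched RefSeq, used for names, by gene identifier. Each gene was represented by its brightest kept probe. One model of 3 group means (3 residual and 4.54 prior degrees of freedom) was fitted to 15967 rows, 11498 of them genes, with eBayes, two-sided tests and Benjamini-Hochberg adjustment over all rows, threshold 0.05. Scores over the members carry no test. Errors beside changes are limma's standard errors. The procedure was run on simulated data with changes of 1.5-fold or more, and no recovery rate is given here. Recovery of smaller changes was not tested. In the measured data PEA15 changed by -0.86 in #1 against NS shRNA and did not pass, where 3 of 15967 rows did. For RPL39L, the bound sets the brighter group's mean against the dimmest detected probe.

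Named are members past the threshold, the 5 highest and 5 lowest changes of each comparison, members with roles outside the ribosome, the stalk proteins, the paralogs, the 3 brightest and 3 dimmest, up to 6 genes whose probes disagree by over 0.4, and from other lists the called members or the 2 highest and 2 lowest, of which a part is printed. Alternatives were other background corrections, normalizations, filters, probe choices, priors and sample sets. Replicate numbers were not treated as pairs in the main model. Deviations of same-numbered arrays correlated at -0.017, 0.045 and 0.078, which shows no strong shared effect. It cannot show that those arrays were handled separately, and the labels do not say.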

Additional observations from a re-analysis of the deposited data

Results flagged for a closer look

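For 4 genes the difference between the hairpins passed limma's test of that difference. RPL14 was higher in PEA15 shRNA #2 than in PEA15 shRNA #1 by 0.55 on the log2 scale (limma adjusted p = 0.0471), being lower than NS shRNA on both #1 arrays and higher on both #2 arrays. RSL24D1 was higher in #2 than in #1 by 0.55 (limma adjusted p = 0.0363), and MYC by 0.47 (limma adjusted p = 0.0454). EIF4EBP2 was lower in #2 than in #1, with a change of -0.83 (limma adjusted p = 0.0132). Each of these calls was lost when a single array of the PEA15 groups was left out.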

How the results depend on the processing

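The counts of ribosomal protein genes past the threshold moved with several settings. In PEA15 shRNA #1 against NS shRNA the count was 0 under every alternative run. In #2 against NS shRNA it was 0 and became 2 (RPS23 and RPS28) with quantile normalization without background correction, 2 with the submitters' values, 2 with a trended prior and 1 (RPS28) with offset 50. In #2 against #1 it was 1 and became 5, 6, 7 and 2 under the same settings, 2 with every kept probe tested, and 0 with no detection filter, with the mean of a gene's probes, with the 2 groups alone, with the replicate block (RPL14 adjusted p = 0.0728) and, as a range, 0 to 0 with any one array left out. The replicate block changed no other count of these genes. The median change in #2 against #1 was 0.06, and it was 0.090 without the brightest members and 0.039 to 0.074 with one array left out, lowest without replicate 2 of #2. Calls over all rows moved likewise: from 3 in #1 against NS shRNA to between 0 and 162, from 271 in #2 against NS shRNA to between 17 and 1004, and from 530 between hairpins to between 35 and 1785. The replicate block gave 0, 142 and 333.

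Of 1408 values of named genes under alternatives, 67 had another sign than in the reported analysis. For #1 against NS shRNA, the mean of a gene's probes gave 0.0048 for RPL13, -0.13 for RPL11, -0.041 for RPLP1, -0.23 for RPS29 and -1.8e-05 for RPL41. For #2 against NS shRNA it gave 0.0027 for RPS29, -0.062 for RPL41, -0.13 for RPS26, -0.0086 for RPL9, 0.030 for RPS27 and 0.021 for RPL13. For #2 against #1 it gave 0.16 for RPL11, 0.24 for RPS29, -0.062 for RPL41, -0.37 for RPS26 and 0.15 for RPS27. Median scaling gave -0.0065 for RPL11 and -0.020 for RPS29 in #1, -0.044 for RPLP2 and -0.015 for RPL41 in #2, and 0.019 for RPL11, -0.039 for RPL41 and -0.055 for RPS12 between hairpins. The submitters' values gave -0.0020 for RPS29 in #1 and -0.0019 for RPS12 between hairpins.

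With one array left out, the changes that could turn sign ran, in #1 against NS shRNA, from -0.050 to 0.12 for RPL11, -0.20 to 0.038 for RPL28, -0.17 to 0.026 for RPL5, -0.020 to 0.013 for RPL9, -0.029 to 0.17 for RPS16, -0.065 to 0.13 for RPS26, -0.066 to 0.027 for RPS27, -0.11 to 0.067 for RPS27L, -0.049 to 0.054 for RPS29, -0.14 to 0.041 for RPS6 and -0.086 to 0.050 for RSL24D1. In #2 against NS shRNA they ran from -0.022 to 0.053 for RPL11, -0.074 to 0.0040 for RPL13, -0.077 to 0.12 for RPL5, -0.081 to 0.15 for RPL9, -0.039 to 0.085 for RPLP2, -0.026 to 0.16 for RPS26, -0.0073 to 0.073 for RPS27L and -0.14 to 0.081 for RPS29. In #2 against #1 they ran from -0.11 to 0.066 for RPL11, -0.15 to 0.086 for RPL28, -0.38 to 0.25 for RPL37, -0.077 to 0.15 for RPL9, -0.12 to 0.0041 for RPLP2, -0.028 to 0.029 for RPS12, -0.20 to 0.0047 for RPS16, -0.043 to 0.12 for RPS26, -0.034 to 0.14 for RPS27L, -0.15 to 0.078 for RPS29 and -0.0035 to 0.18 for RPS6.
The cause of these shifts was not tested. A pair of arrays per group, unknown culture origin and probes that may capture near-identical copies limit every value.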
